A study of Mus musculus with 25 samples.

Results

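The genes of the T cell coreceptors CD4 and CD8 were examined in 25 lists of chromatin immunoprecipitation peaks: Cd4, Cd8a and Cd8b1, together with Zbtb7b, the gene of a regulator of Cd4. These 4 of 21627 protein-coding genes were taken by name. For each, the peaks and the bases they cover were counted in a window of the gene body and 50 kb on both sides, in every list. The study asked how TCF-1, the factor encoded by Tcf7, reshapes genome folding, and used a pair of mouse cell lines. The first is Scid.adh, a thymic lymphoma line that stands for thymocytes at the double-negative 3 (DN3) stage. It carried either an empty vector (EV, called wild type in the sample titles) or a TCF1 knockout (KO). The second is the fibroblast line NIH-3T3 (3T3), which lacks a T cell programme and was left untreated or had TCF-1 induced in it. DN3 cells gave 18 lists: 2 for each of EV and KO with antibodies to CTCF, SMC1, NIPBL and H3K27ac, and 2 for TCF-1 in EV cells. Fibroblasts gave 7: 2 untreated and 2 induced for CTCF, 1 of each for SMC1, and 1 for TCF-1 in induced cells. The labels do not say whether the KO line is 1 clone, how TCF-1 was induced, or whether lists of a group came from separate cultures, so a p-value here measures only the spread between lists, which may be technical.

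CD4 and CD8 are the coreceptors that bind MHC molecules beside the T cell receptor and bring the kinase Lck to it. DN3 thymocytes carry neither on their surface; both appear at the next, double-positive stage, and later CD4 stays on helper cells and CD8 on cytotoxic cells. Cd4 is held off before that by a silencer in its first intron, bound by Runx factors, while enhancers between and around Cd8b1 and Cd8a switch the CD8 pair on in stages. Zbtb7b encodes ThPOK, the zinc finger factor that commits cells to the CD4 helper lineage and keeps the Cd4 silencer from acting. It was first known as cKrox, a regulator of collagen genes in skin, so it is not a gene of T cells alone. CTCF stops cohesin at loop anchors, SMC1 is a subunit of the cohesin ring, NIPBL loads cohesin, and H3K27ac marks active promoters and enhancers.

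Coordinates are on mm10 (GRCm38). The body of Cd4 spans chr6:124864693-124888247, with P3h3, Gpr162 and other genes on its lower-coordinate side and Lag3, Ptms and Mlf2 on the other. Cd8b1 (chr6:71322788-71337492) and Cd8a (chr6:71373427-71379171) lie 35.9 kb apart, between Gm1070 and Rmnd5a. Their windows share 64.1 kb, so many peaks count for both genes and both are not independent. Zbtb7b spans chr3:89377644-89393673, between Dcst2 and Lenep, in a dense stretch that also holds Flad1, Cks1b, Shc1 and Pbxip1.

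The lists give no read totals, so depth is unknown, and a base outside all peaks is only one that was not called. The total covered by a list differed little between the H3K27ac lists (89.5 to 91.6 Mb). The total was 37.5 and 38.7 Mb in EV against 52.3 and 56.4 Mb in KO for SMC1, 16.6 and 23.1 against 27.8 and 23.3 Mb for CTCF, and 4.85 and 9.69 against 19.5 and 8.67 Mb for NIPBL, whose KO list 1 stands apart. The part of these totals in the differences below was not tested, beyond the values given for lists scaled to equal total bp. In fibroblasts CTCF covered 17.8 and 20.1 Mb untreated and 37.6 and 34.3 Mb induced. Fibroblast SMC1 covered 97.7 Mb untreated and 94.4 Mb induced, far more than any DN3 SMC1 list. All 8 T precursor markers were acetylated in every DN3 list (169 to 177 kb summed over their bodies and 10 kb on both sides), among them Cd3e, Ptcra and Rag1. Of 6 fibroblast markers 4, Col1a2, Col3a1, Vim and Twist1, were at 0 in every such list, as were the B cell markers Pax5 and Ebf1 and the myeloid markers Csf1r and Lyz2. Others acetylated in every DN3 list included Pdgfrb of the fibroblast markers (15.2 to 25.8 kb), Itgam (17.9 to 22.9 kb) and Spi1 (8.08 to 9.09 kb) of the myeloid ones, and Cd79a (7.71 to 9.89 kb) of the B cell ones; their part in the results was not tested. No list here shows whether TCF-1 is lost in KO cells: the body of Tcf7 with 50 kb on both sides kept 78.4 and 81.9 kb of acetylated sequence in KO against 82.4 and 82.7 kb in EV, and a peak list does not check a deletion.

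Promoter sequence shows what the members hold at their starts. Windows of 250 bases before a RefSeq start (GRCm38.p6) were given for 2 starts of Zbtb7b and 1 of Cd8a, and Cd4 and Cd8b1 are named only. The first lies at chr3:89393379-89393628 (minus strand), before the outer of the 2 Zbtb7b starts given, called the outer start here. This window lies wholly inside the gene body, so the outer start is not the higher-coordinate end of the body. The next lies at chr3:89387672-89387921 (minus strand), before the inner start, farther inside the gene body. The last lies at chr6:71373177-71373426 (plus strand), before Cd8a. Capitals mark matches, on either strand, to the E-box CANNTG and the Runx motif TGTGGT:
Zbtb7b outer start: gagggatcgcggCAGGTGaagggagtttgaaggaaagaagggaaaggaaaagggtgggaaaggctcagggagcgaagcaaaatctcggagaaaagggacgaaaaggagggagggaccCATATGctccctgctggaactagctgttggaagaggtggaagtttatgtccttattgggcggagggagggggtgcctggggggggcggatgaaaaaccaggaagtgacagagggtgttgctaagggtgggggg
Zbtb7b inner start: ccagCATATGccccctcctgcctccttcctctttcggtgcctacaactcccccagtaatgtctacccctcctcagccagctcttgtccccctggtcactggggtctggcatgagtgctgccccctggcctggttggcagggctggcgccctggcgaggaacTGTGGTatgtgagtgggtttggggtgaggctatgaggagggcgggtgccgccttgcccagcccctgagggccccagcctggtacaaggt
Cd8a start: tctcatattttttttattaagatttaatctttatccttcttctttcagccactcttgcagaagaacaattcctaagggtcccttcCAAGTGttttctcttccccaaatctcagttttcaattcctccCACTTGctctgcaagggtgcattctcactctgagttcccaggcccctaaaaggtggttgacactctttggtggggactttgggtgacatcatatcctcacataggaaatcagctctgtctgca
None of the windows held the TCF/LEF letters CTTTGAT or CTTTGAA or the CTCF core. The outer Zbtb7b window held 2 E-boxes, the inner one 1 E-box and 1 Runx match, and the Cd8a window 2 E-boxes. Among 32851 RefSeq promoter windows of the same length, 66.2% held an E-box, 14.0% the Runx letters, 3.21% CTTTGAT, 4.46% CTTTGAA and 0.0122% the CTCF core. These matches are letters in a window, not sites of a factor. The 250 bases before the outer Zbtb7b start lay under H3K27ac peaks in all 4 DN3 lists. SMC1 peaks covered them whole in both fibroblast lists and in part in all 4 DN3 lists. The TCF-1 peak of induced fibroblasts covered them in part. The 250 bases before Cd8a lay under a single peak of all 25 lists, an H3K27ac peak of KO list 1.

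**Figure D1:**
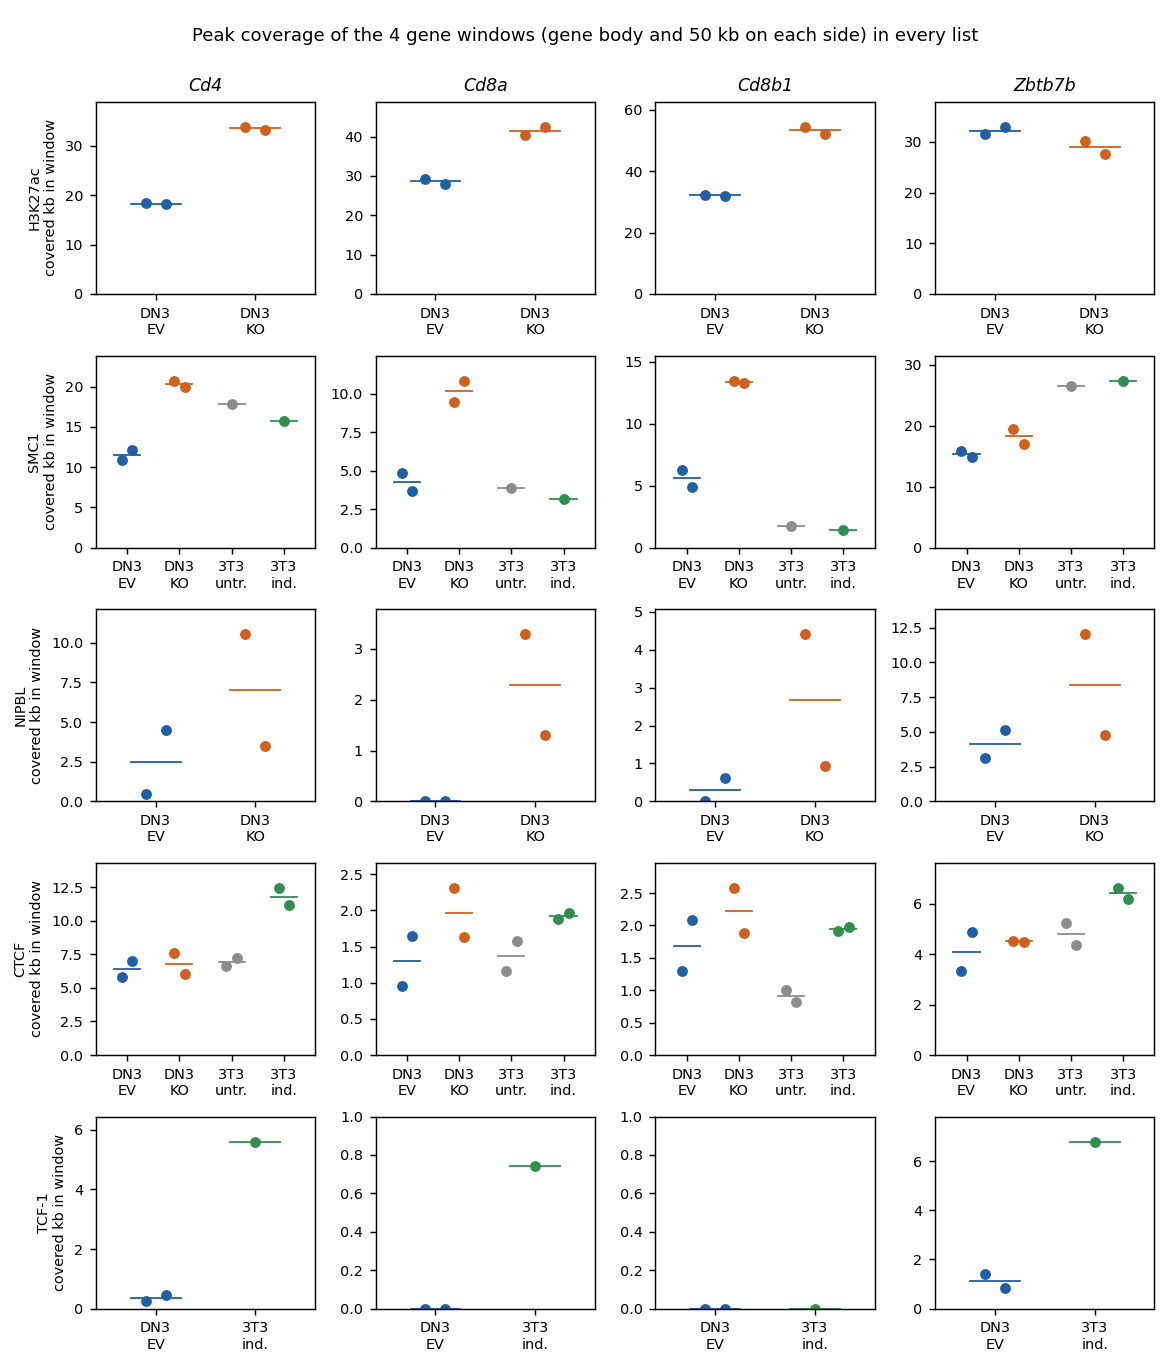
Kilobases covered by peaks in the window of each gene (columns) for each antibody (parts from top to bottom, each panel with its own axis from 0); a point is a list and a bar the mean of a group. H3K27ac and SMC1 points of KO cells sit above those of EV cells for Cd4, Cd8a and Cd8b1, and H3K27ac points of KO cells sit below those of EV cells for Zbtb7b.

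In DN3 cells lacking TCF-1, more of the surroundings of Cd4, Cd8b1 and Cd8a was acetylated than in EV cells, and the test passed for all 3. At Zbtb7b it did not. The sizes were 1.81-fold for Cd4, 1.65-fold for Cd8b1 and 1.44-fold for Cd8a, while the median gene differed by -0.02 on the log2 scale and the median of the 4 members was 0.62. The test was limma on log2(covered bp + 500) over the 15420 genes with at least 500 bp on average, with Benjamini-Hochberg adjustment over all of them. Of these genes, 11.6% were called higher in KO and 14.4% lower. Folds on this scale understate changes of small values, and each sums over bases, not over the strength of peaks.

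The Cd4 window held 18.3 and 18.2 kb of H3K27ac peaks in EV lists 1 and 2 and 33.8 and 33.2 kb in KO lists 1 and 2. Both KO lists lay far above both EV lists. The difference was 0.86 (SE 0.06, limma adjusted p = 6.76e-04), higher than that of 97.0% of genes tested. Within the gene body itself, peaks covered 0 and 0.33 kb in EV and 5.63 and 3.61 kb in KO. Tested on the body alone the difference was 2.96 (limma adjusted p = 0.0485). There Cd4 passed the filter on low values only through the KO lists, and the size depends on the 500 bp that were added. On the body with 10 kb on both sides the difference was 1.77 (limma adjusted p = 0.0173). With each list cut down to the peaks whose −log10 q-value reached its median, it was 0.40 and missed the threshold (limma adjusted p = 0.0561).

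The added acetylation lay over Cd4 and over Lag3, the neighbouring gene of an inhibitory receptor that also binds MHC class II. The region chr6:124884895-124886135 inside Cd4 was called in both KO lists (1203 and 1079 bp of it) and in neither EV list. Another Cd4 region, chr6:124878001-124880497, held 0 and 330 bp in EV against 2473 and 2237 bp in KO. In the body of Lag3, covered sequence was 0.94 and 0.69 kb in EV and 6.49 and 5.09 kb in KO, including chr6:124908112-124911880, found only in KO. A shorter stretch of P3h3, chr6:124850678-124851100, was also found only in KO. By contrast, the 16.1 kb between Cd4 and Lag3 held about the same in all lists, 6.81 and 7.06 kb in EV against 7.29 and 6.96 kb in KO. That gap carries most of one broad region, chr6:124898059-124907318, present in every list. Over Ptms, beyond Lag3, coverage was 0.99 and 1.18 kb in EV and 3.43 and 4.27 kb in KO. Here and below, a region found only in KO is one called in both KO lists and in neither EV list, and the reverse for EV; regions called in 1 list of a group are not counted. These stretches were chosen after their values were seen and were not tested singly.

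**Figure D2:**
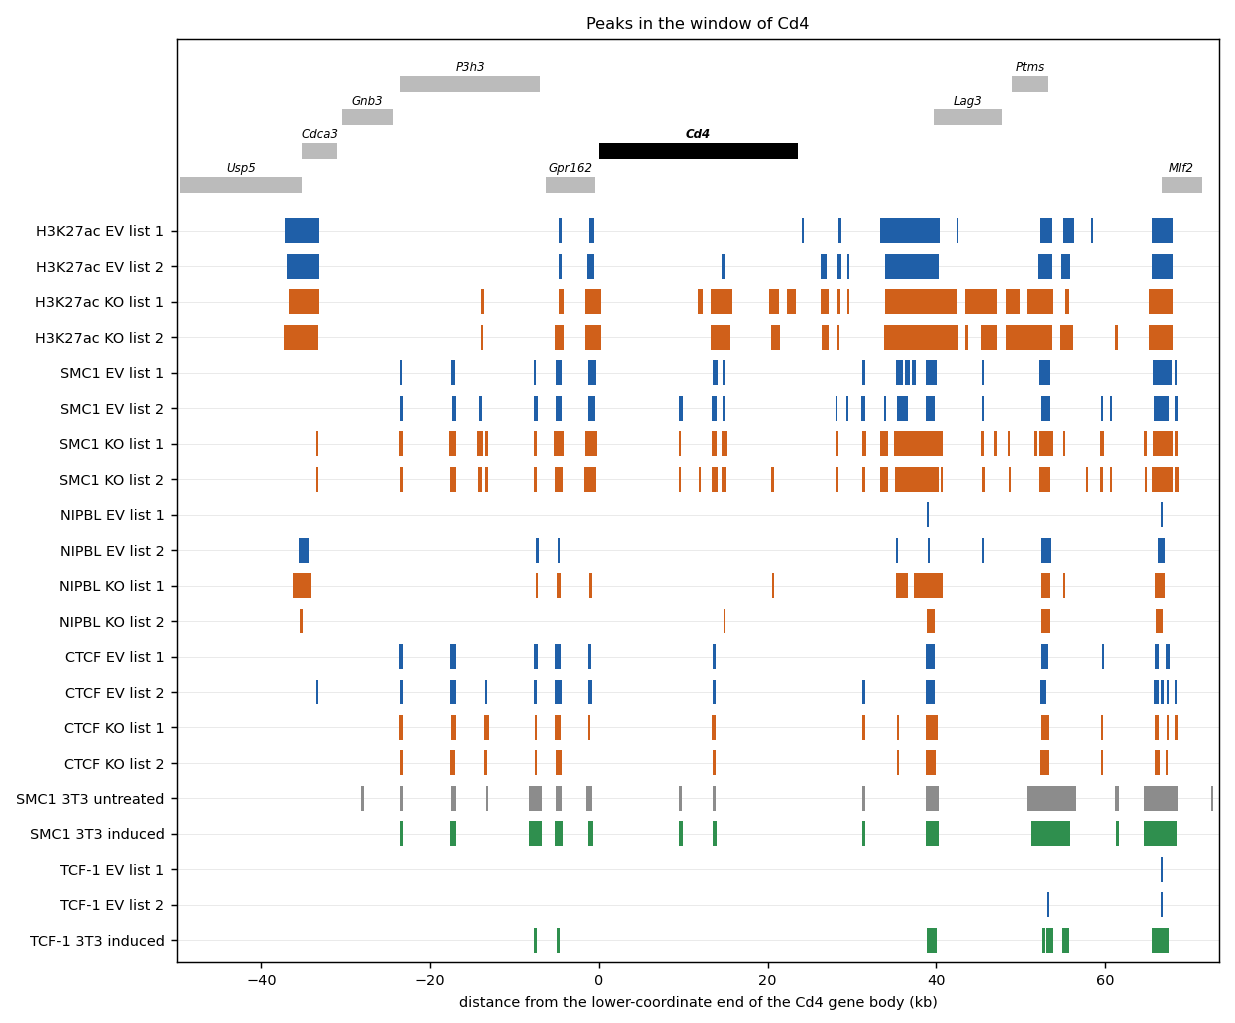
Peaks of DN3 EV (blue) and KO (orange) lists and of untreated (grey) and induced (green) fibroblasts in the Cd4 window, by distance in kb from the lower-coordinate end of the gene body; bars above are gene bodies. H3K27ac peaks inside Cd4 and Lag3 fill in for KO lists, while the broad region between both genes is called in all 4 lists.

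Cd8b1 had 32.2 and 32.0 kb of its window under H3K27ac peaks in EV and 54.4 and 52.1 kb in KO. The groups did not overlap. The difference was 0.72 (SE 0.05, limma adjusted p = 7.44e-04), higher than for 95.8% of genes, and was 0.28 and not called (limma adjusted p = 0.0938) on the body with 10 kb on both sides. For Cd8a the covered length was 29.1 and 28.1 kb in EV and 40.5 and 42.5 kb in KO, again without overlap. Its difference was 0.53 (SE 0.06, limma adjusted p = 0.00257), which became 0.50 with an adjusted p of 0.0538 by limma when EV list 2 was left out.

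Acetylation of the CD8 pair differed outside the coding bodies more than within them. The Cd8b1 body held 6.57 and 7.90 kb in EV and 7.13 and 8.18 kb in KO, and on the body alone its difference was 0.08 (limma adjusted p = 0.796). The Cd8a body held 1.73 and 1.75 kb in EV against 2.65 and 1.79 kb in KO, with a difference of 0.26 (limma adjusted p = 0.523). In the 35.9 kb between both genes, where several Cd8 enhancers are known to lie, peaks covered 39.1% and 37.7% in EV and 62.5% and 59.9% in KO. Between Gm1070 and Cd8b1, 19.9 kb long, they covered 7.03 and 7.78 kb in EV and 13.8 and 13.7 kb in KO. A peak over the lower-coordinate end of Cd8b1 (chr6:71320254-71324529 in KO list 1) had the highest fold enrichment of any peak in the joined windows in both KO lists, 8.09 and 7.69 by the authors' peak caller. In both EV lists the peak over Krcc1, at the edge of the window, came first. By −log10 q-value the Krcc1 peak came first in KO lists 1 and 2 as well, at 50.7 and 51.9 against 28.8 and 25.8 for the Cd8b1 peak.

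A total of 3 stretches of the joined Cd8 windows were acetylated only in KO, in both lists: chr6:71299188-71300058 in Gm1070, chr6:71381968-71382802 beyond Cd8a, and chr6:71370832-71374267, which reaches over the start of Cd8a. In KO list 1 this last stretch was 1 peak of 3436 bp that covers the Cd8a promoter printed above. In KO list 2 it was a peak of 1303 bp that ends before the promoter. A stretch of Rmnd5a, chr6:71418301-71419459, was acetylated only in EV lists. Counting merged regions, 3 of 18 in the joined Cd8 windows (16.7%) and 3 of 20 in the Cd4 window (15.0%) were found only in KO, against 4.82% of 49787 regions over the genome.

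**Figure D3:**
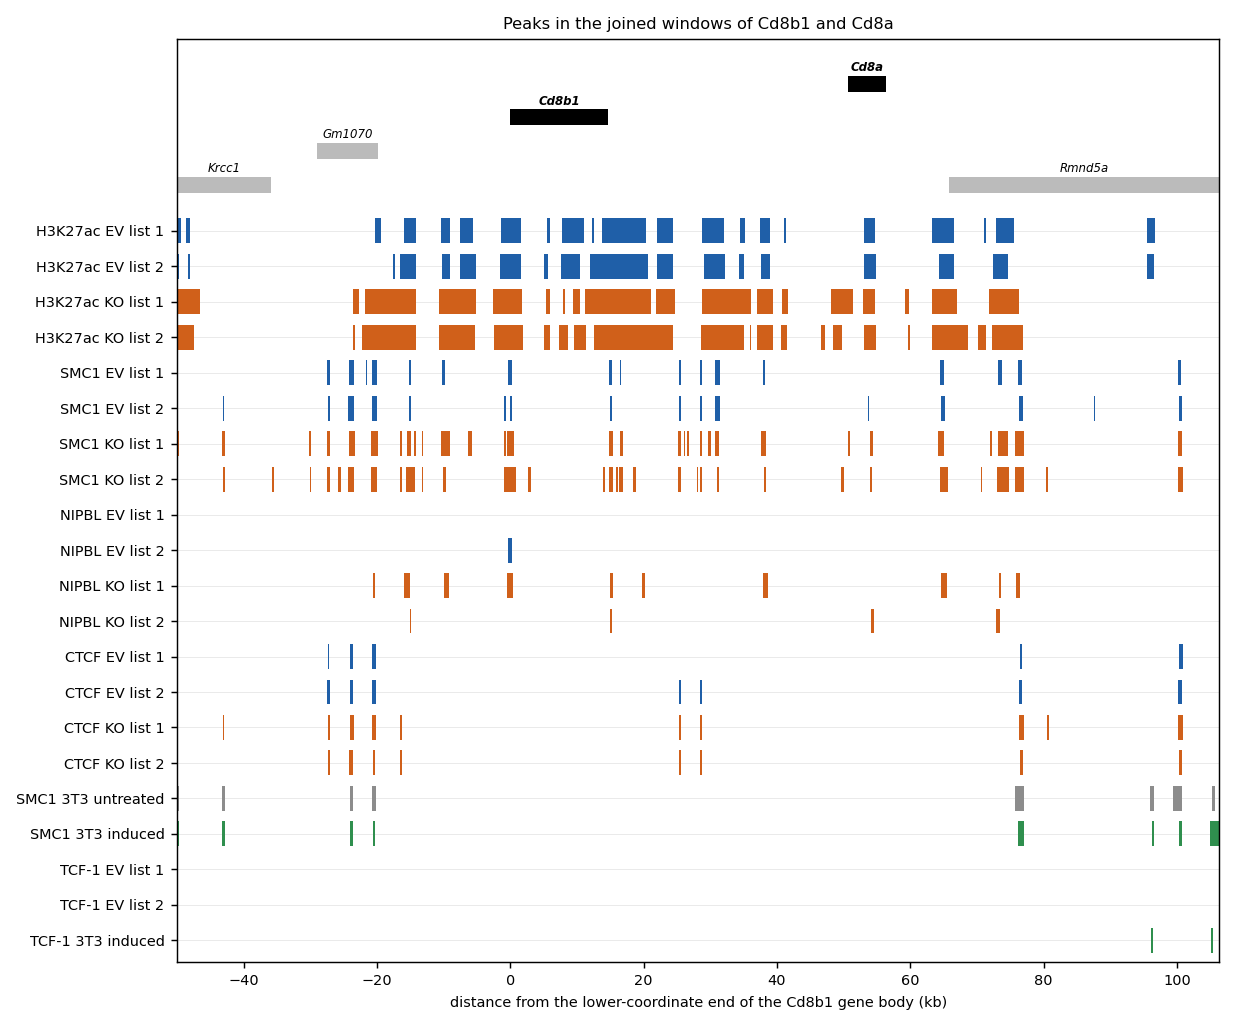
Peaks in the joined windows of Cd8b1 and Cd8a, by distance in kb from the lower-coordinate end of Cd8b1, with colours as in the Cd4 map. Between both genes the H3K27ac and SMC1 peaks of KO lists are wider or more numerous, NIPBL peaks appear there in KO lists alone, and no TCF-1 peak lies there in any list.

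Zbtb7b was the only one of the 4 with less acetylation in both KO lists, 30.2 and 27.6 kb against 31.5 and 32.9 kb in EV. The difference of -0.16 (SE 0.07) did not pass the test (limma adjusted p = 0.164). In H3K27ac the KO lists lay above both EV lists for 3 of 4 members, where 28.9% of all genes tested do so, and below them for 1 of 4, Zbtb7b, where 35.8% do. Acetylation of Zbtb7b was broad. The region chr3:89381240-89397290 runs over most of the body and past the outer start, and was called in all 4 lists. The body held 12.3 and 12.6 kb in EV and 10.8 and 9.49 kb in KO. Within that region peaks covered 15673 and 15190 bp in EV and 14293 and 13075 bp in KO. A small stretch at the other end of the body, chr3:89378616-89378872, was called only in EV.

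**Figure D4:**
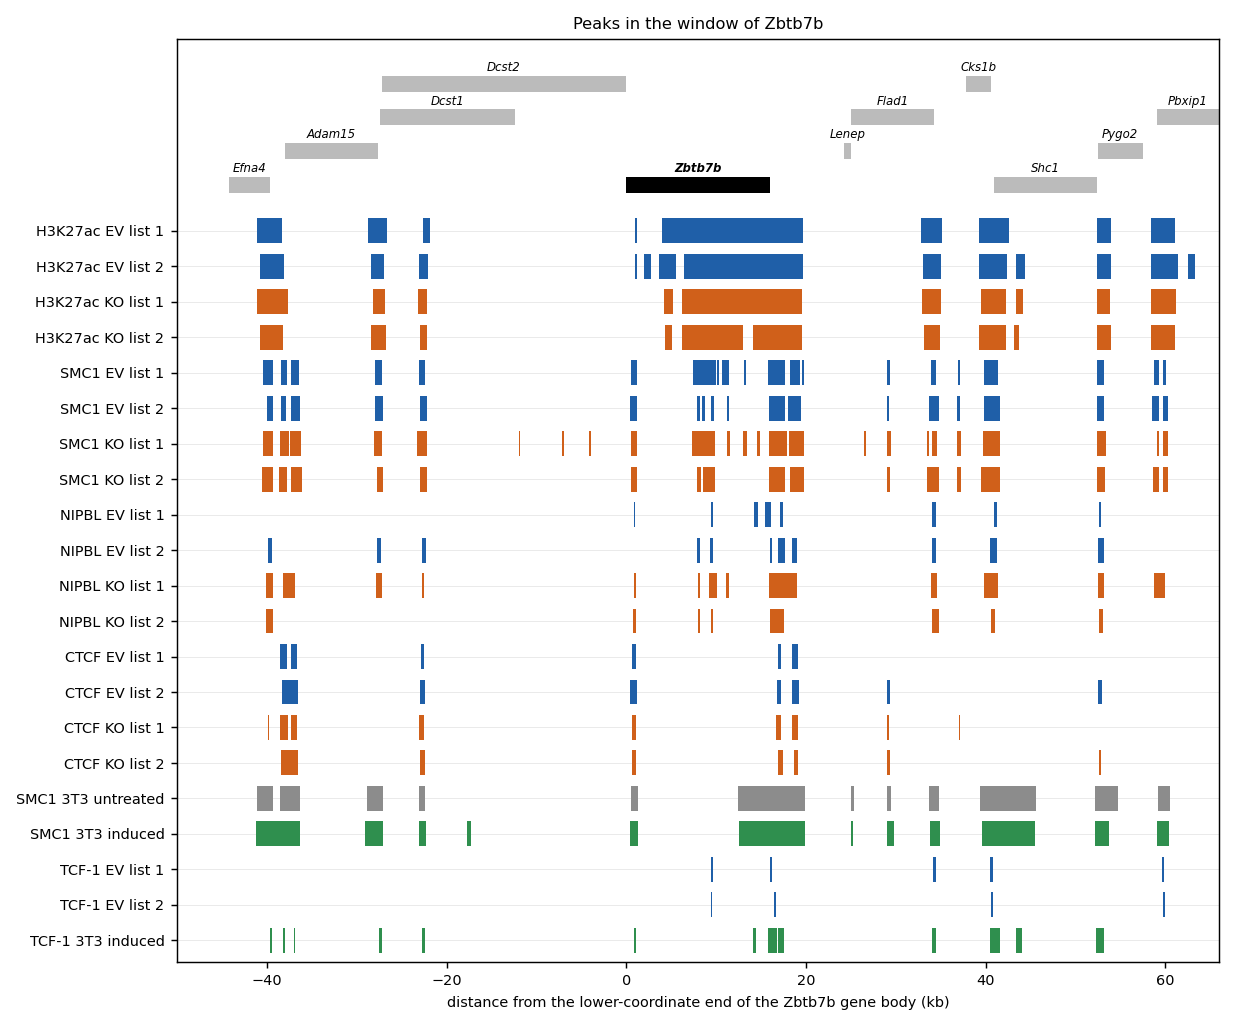
Peaks in the Zbtb7b window, by distance in kb from the lower-coordinate end of the gene body, with colours as in the Cd4 map. The outer start lies inside the body, near its right end. H3K27ac and SMC1 peaks of EV and KO lists line up, and TCF-1 peaks lie in the body, at the outer start and over neighbouring genes.

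Cohesin followed the same genes. SMC1 peaks in the Cd4 window covered 10.9 and 12.1 kb in EV and 20.75 and 19.99 kb in KO. At Cd8b1 they covered 6.27 and 4.89 kb in EV and 13.5 and 13.3 kb in KO. At Cd8a the values were 4.83 and 3.70 kb against 9.45 and 10.9 kb. At these 3 genes both KO lists lay above both EV lists, as they did at 74.4% of all genes tested. Cd8b1 and Cd8a are not separate loci here, since their windows share many of these peaks.

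The SMC1 differences were 1.20 for Cd8b1 (SE 0.17), 1.17 for Cd8a (SE 0.18) and 0.80 for Cd4 (SE 0.09), against a median of 0.36 over all 18440 genes tested and of 0.98 over the 4 members. They just passed the threshold, with limma adjusted p of 0.0452, 0.0454 and 0.0448, as did 7.98% of genes with higher SMC1 in KO. Zbtb7b, with 15.9 and 14.8 kb in EV and 19.5 and 17.0 kb in KO, differed by 0.24 (limma adjusted p = 0.162), less than the median gene. All 4 members had both KO lists above both EV lists in SMC1, but so did 74.4% of genes. With lists scaled to equal total bp the differences were 0.73, 0.71 and 0.31 for Cd8b1, Cd8a and Cd4 and -0.26 for Zbtb7b, none of them called, and leaving out either KO list also ended all 3 calls (limma adjusted p = 0.250 without KO list 1 and 0.394 without KO list 2).

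Where the added cohesin lay differed from gene to gene. At Cd4 the gap to Lag3 held 3.10 and 3.37 kb of SMC1 peaks in EV and 6.36 and 6.21 kb in KO, although its acetylation was alike. One SMC1 region, chr6:124899658-124905467, lies mostly in that gap and runs on into Lag3. Over its whole length it held 3257 and 2435 bp in EV and 5810 and 5460 bp in KO. At the CD8 pair the gap between both genes held 2.48 and 1.73 kb in EV and 4.31 and 4.09 kb in KO. One region inside Cd8a, chr6:71376768-71377259, had SMC1 peaks only in KO, and so did 3 others of 41 regions in the joined windows (9.76% in all, 9.26% over the genome). EV list 2 had a separate SMC1 peak inside Cd8a, chr6:71376420-71376619, close to that region. In the Cd4 window 4 of 30 SMC1 regions (13.3%) were found only in KO, in Cdca3, in P3h3 and between genes. No SMC1 region of these windows was called in both EV lists and in neither KO list.

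NIPBL, the cohesin loader, was not called at any of the 4 genes. In the Cd8a window no NIPBL peak was listed in either EV list, and peaks covered 3.29 and 1.31 kb in KO lists 1 and 2. In the Cd8b1 window they covered 0 and 0.61 kb in EV and 4.41 and 0.93 kb in KO. These were the 2 of 4 members whose groups did not overlap, where 28.6% of genes have both KO lists above both EV lists.

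The fitted NIPBL differences were 2.39 for Cd8a (unadjusted p = 5.26e-04), 1.83 for Cd8b1 (unadjusted p = 0.00654), 1.61 for Cd4 and 0.85 for Zbtb7b, with a limma adjusted p of 0.845 for each beside a median of 1.72 over the members and of 0.59 over all genes. The Cd8a value rests on EV lists at 0 and the Cd8b1 value on EV lists at 0 and 0.61 kb. Both values therefore depend on the 500 bp that were added. Both Cd8a and Cd8b1 passed the filter on low values only through the KO lists. Of 13074 genes, 0.0% were called by limma, and 549 had an unadjusted p under 0.05. At Cd4 (0.45 and 4.52 kb in EV, 10.54 and 3.49 kb in KO) and at Zbtb7b (3.09 and 5.16 kb in EV, 12.03 and 4.76 kb in KO) the groups overlapped, and KO list 1, the longest NIPBL list, was highest. Without KO list 2, Cd8a (2.92, limma adjusted p = 0.00155) and Cd8b1 (2.72, limma adjusted p = 0.0215) were called; that fit leaves KO with list 1 alone, taken to vary like the EV lists. NIPBL regions called in both KO lists and in neither EV list numbered 3 of 11 in the joined Cd8 windows (27.3%, against 5.88% over the genome). One of them, chr6:71337687-71338118, lies just past the Cd8b1 body.

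CTCF did not differ detectably between EV and KO at any of the genes. The Cd4 window held 5.83 and 6.97 kb in EV and 7.60 and 6.0 kb in KO. Cd8b1 held 1.29 and 2.09 kb against 2.58 and 1.88 kb, Cd8a 0.96 and 1.65 kb against 2.31 and 1.63 kb, and Zbtb7b 3.32 and 4.89 kb against 4.54 and 4.47 kb. The lists of EV and KO overlapped for all 4 members, while 44.0% of genes had both KO lists above both EV lists. The differences, 0.08 for Cd4, 0.46 for Cd8a, 0.33 for Cd8b1 and 0.14 for Zbtb7b, had limma adjusted p from 0.420 to 0.802, beside a median of 0.23 over the members and 0.28 over all genes and 0.201% of 17925 genes called higher. No CTCF peak lay in the bodies of Cd8a or Cd8b1 in any of the 8 CTCF lists.

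Of the CTCF regions in these windows 2 were called in both KO lists and in neither EV list. One, chr6:124900009-124900318, lies between Cd4 and Lag3. The other lies between Gm1070 and Cd8b1. There, at chr6:71306222-71306515, CTCF was called in both KO lists and in neither EV list, and at chr6:71306158-71306555 so was SMC1. In fibroblasts a CTCF peak at chr6:71306298-71306505 was called in both induced lists and in neither untreated list. In each line the lists with this peak are the longer ones: 62353 and 55149 CTCF peaks in KO against 42214 and 53729 in EV, and 68306 and 64645 in induced against 38369 and 41236 in untreated fibroblasts. A peak not called there is no measured absence of CTCF. CTCF regions called in both KO lists and in neither EV list made up 6.36% of 69616 DN3 regions, and those called in both induced and in neither untreated list 21.2% of 75388. The second site was picked out after its values were seen.

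TCF-1 itself was found at Zbtb7b but not at the CD8 genes in DN3 cells. EV lists 1 and 2 held 5 and 4 TCF-1 peaks in the Zbtb7b window, 1 and 2 in the Cd4 window and none in the windows of Cd8a and Cd8b1. Of all windows, 31.1% held a TCF-1 site found in both lists. At Zbtb7b there were 3 such sites. One, chr3:89387034-89387339, lies inside the gene body and carried H3K27ac, SMC1 and NIPBL peaks in all 12 EV and KO lists, with no CTCF. It lies close to the printed inner promoter window, on its lower-coordinate side. The others lie at the end of Cks1b (chr3:89418087-89418498) and in Pbxip1 (chr3:89437332-89437628). Next to the outer start, list 1 had a peak at chr3:89393629-89393866 and list 2 one at chr3:89394060-89394275, which do not overlap.

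For Cd4 the one site in both lists was at Mlf2 (chr6:124931315-124931583), 43.1 kb from the gene body. No TCF-1 peak lay inside Cd4 in any list. The nearest DN3 site to Cd8a in both lists was 60.8 kb away, outside the window. The stretches of Cd4, Lag3 and the CD8 pair acetylated only in KO held no DN3 TCF-1 peak. A missing peak is not a measured absence, and links across distance were not tested.

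In fibroblasts with induced TCF-1, 13 TCF-1 peaks lay in the Zbtb7b window, 9 in the Cd4 window, 2 in the Cd8a window and 0 in the Cd8b1 window. Over all genes, 76.3% of windows held at least 1. At the outer start of Zbtb7b a peak of 955 bp, chr3:89393455-89394409, covers both DN3 peaks there. At Cd8a both peaks lay in Rmnd5a. The fibroblast list is much longer than the DN3 lists, and cut to its widest peaks, as many as the shorter DN3 list holds, it kept 5 peaks at Zbtb7b, 4 at Cd4 and 0 at Cd8a.

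Induction of TCF-1 in fibroblasts went with more CTCF coverage at all 4 genes. The Cd4 window held 6.61 and 7.25 kb untreated and 12.4 and 11.2 kb induced, a difference of 0.73 (SE 0.22, limma adjusted p = 0.00623). Cd8b1 held 1.00 and 0.82 kb untreated and 1.91 and 1.97 kb induced, a difference of 0.80 (SE 0.24, limma adjusted p = 0.00657). Cd8a (1.16 and 1.58 kb against 1.88 and 1.97 kb, limma adjusted p = 0.141) and Zbtb7b (5.24 and 4.38 kb against 6.63 and 6.20 kb, limma adjusted p = 0.119) did not pass.

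These CTCF differences had a median of 0.56, below the 0.75 of all genes, 79.3% of genes were called higher, and 95.8% had both induced lists above both untreated lists, as all 4 members did. With lists scaled to equal total bp, the differences were -0.15 for Cd4, 0.12 for Cd8b1, -0.32 for Cd8a and -0.46 for Zbtb7b, none called. Without untreated list 1, the Cd4 call was also lost (0.66, limma adjusted p = 0.0603), as it was without induced list 1 (0.65, limma adjusted p = 0.0787). Fibroblast SMC1, with 1 list a group and so no test, covered 17.8 kb untreated and 15.7 kb induced at Cd4, 3.85 and 3.16 kb at Cd8a, 1.78 and 1.44 kb at Cd8b1, and 26.6 and 27.4 kb at Zbtb7b. None of these differed by 1 or more on the log2 scale, where 1.33% of genes did.

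Between the cell lines, cohesin in unscaled lists set the CD8 genes apart from Zbtb7b. Each fibroblast SMC1 group holds 1 list, so no spread between fibroblast lists was measured. For SMC1 between the lines, here and below, SEs and p-values rest on the spread within the DN3 groups alone. SMC1 coverage was higher in DN3 cells, over EV and KO lists together, than in fibroblasts for Cd8b1 (2.12, SE 0.15, limma adjusted p = 4.07e-04) and Cd8a (0.83, SE 0.16, limma adjusted p = 0.00761). In the 35.9 kb between both genes no SMC1 peak was called in either fibroblast list, while each DN3 list held 4 to 10. The median was -0.75 over all genes and 0.35 over the members, and 10.7% of genes were higher and 66.2% lower in DN3. For Cd8a the EV lists alone, at 4.83 and 3.70 kb, lay on both sides of the untreated fibroblast value of 3.85 kb, and both KO lists lay above it. Without KO list 2 Cd8a missed the threshold (0.78, limma adjusted p = 0.0516).

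Zbtb7b was lower in DN3 cells for SMC1 (-0.67, SE 0.09, limma adjusted p = 0.00287), close to the median gene, and turned to higher (0.38, limma adjusted p = 0.0474) with lists scaled to equal total bp. Cd4 did not differ detectably (-0.12, limma adjusted p = 0.223) and was higher by that scaling (0.92, limma adjusted p = 0.00133). Both CD8 genes kept their direction and call under it. For CTCF, Cd4 was lower in DN3 cells (-0.44, SE 0.15, limma adjusted p = 0.0295), a call lost when any of the 4 fibroblast lists, EV list 1 or KO list 2 was left out. Cd8a (-0.03), Cd8b1 (0.38) and Zbtb7b (-0.34) were not called. The median was -0.19 over the members and -0.16 over all genes, and 9.07% of genes were higher and 27.3% lower.

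Ranked within each list by the share of the window covered, the members stood in different places. Zbtb7b stood at the 79.4th percentile of genes or above in every list, fibroblast or DN3, with whichever antibody. Cd8b1 stood between 95.4 and 99.5 for H3K27ac and between 68.9 and 90.9 for DN3 SMC1, but at 23.5 and 23.8 for fibroblast SMC1. Cd8a stood at 94.7 or above for H3K27ac, and at 36.5 and 38.4 for fibroblast SMC1. Cd4 stood at 83.1 and 83.9 for H3K27ac in EV and 95.2 and 95.6 in KO, and at or above 93.2 for CTCF in both cell lines. For CTCF, Cd8a and Cd8b1 stayed between 31.9 and 55.0 in all 8 lists.

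The genes most like each member by these ranks over the 25 lists, which share antibodies and cells, were Prodh for Cd4 (Pearson r = 0.88), Lrrc66 for Cd8a (r = 0.93), Cd84 for Cd8b1 (r = 0.96) and Slc38a2 for Zbtb7b (r = 0.87). Next came Dgcr6 and Tmco6 for Cd4, Bex3 and Mc2r for Cd8a, Slfn8 and Gng4 for Cd8b1, and Arhgap5 and Ier5 for Zbtb7b. Cd84, like the CD8 genes, encodes a surface protein of lymphocytes.

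Among 20 regulators and partners of the coreceptor genes, such as Runx factors, Gata3, Tox and the kinase gene Lck, H3K27ac was called higher in KO at 3 and lower at 2, near the 11.6% and 14.4% of all genes. The median difference was -0.00, beside -0.02 over all genes. Tox, whose product CD4 lineage cells need, fell from 71.6 and 69.0 kb in EV to 28.2 and 30.8 kb in KO (-1.24, limma adjusted p = 3.66e-04). Runx3, whose product silences Cd4 in CD8 cells, fell from 42.8 and 45.9 kb to 30.2 and 35.0 kb (-0.44, limma adjusted p = 0.0170), a call lost without EV list 1, EV list 2 or KO list 1 (limma adjusted p up to 0.164 over the alternatives). Tox was called under all 15 settings. Socs1, Tcf12 and Ets1 were the higher ones, called under 6 of 13, 10 of 15 and 7 of 15 settings. Each of these calls was lost without KO list 1 and without KO list 2.

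For SMC1, 4 of the 20 were called higher in KO (Runx3, Lef1, Tcf12 and Socs1) and none lower, beside 7.98% of all genes called higher, with a median of 0.71 beside 0.36. None of these 4 calls held without KO list 1 or without KO list 2 (limma adjusted p of at least 0.250), at equal list length or with no trend. Socs1 was listed at 0 in both EV lists and at 0.35 and 0.32 kb in KO, and passed the filter on low values through the fibroblast lists, at 12.4 and 16.8 kb. Runx3 had 5.68 and 5.01 kb of SMC1 peaks in EV and 23.1 and 19.2 kb in KO (1.89, limma adjusted p = 0.0399). None of the 20 was called for CTCF, where Tcf12 (0.48) differed most. Nor was any of the 19 tested for NIPBL, where Ets1 (1.67) differed most. Induced fibroblasts had higher CTCF coverage at 14 of 20, beside 79.3% of all genes. Against fibroblasts, DN3 cells had higher SMC1 coverage at 12 and lower at 5, beside 10.7% and 66.2% of all genes, and higher CTCF coverage at 10 and lower at 3, beside 9.07% and 27.3%.

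**Figure D5:**
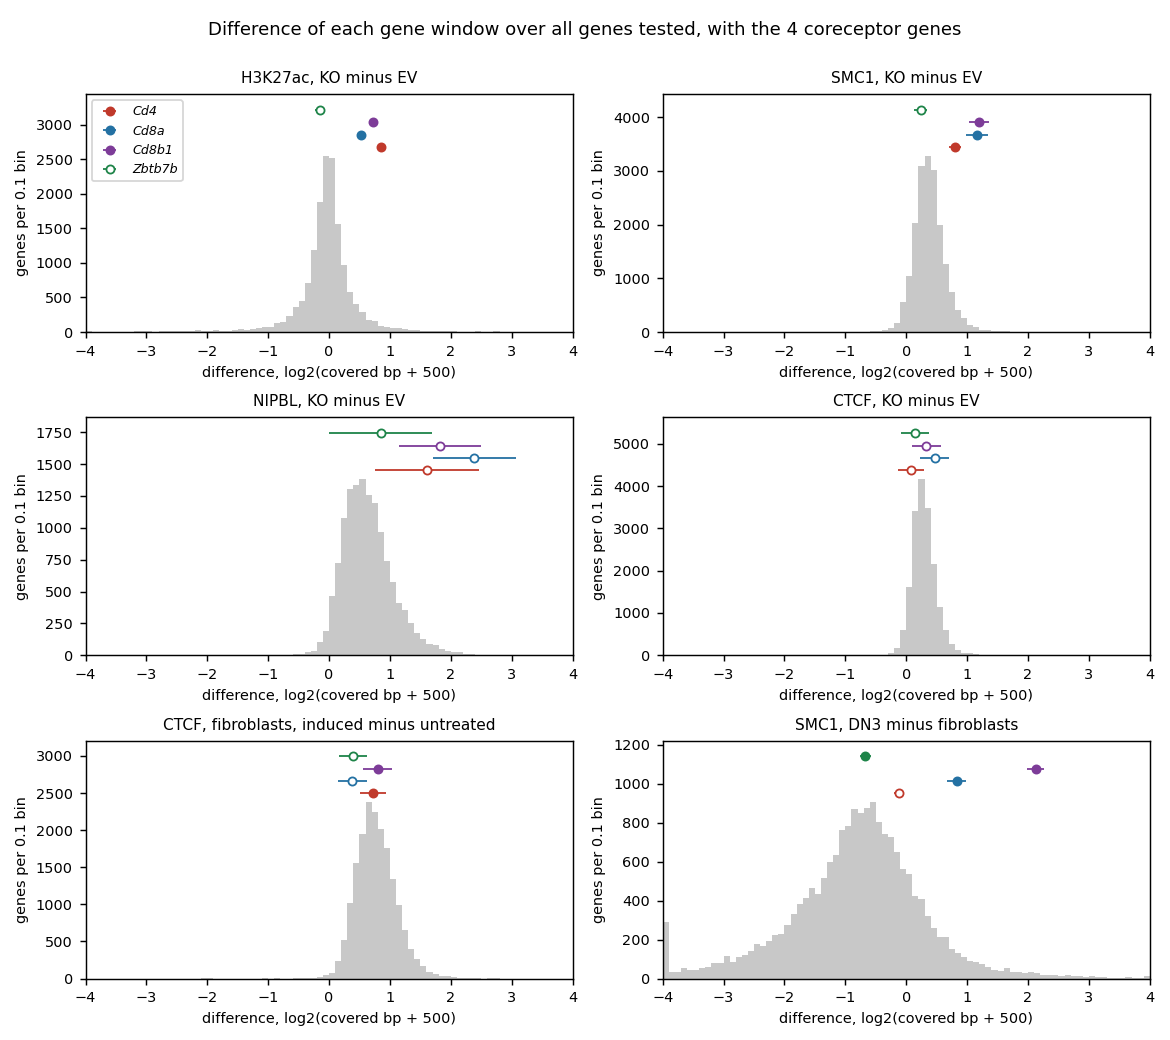
Histograms of the log2 difference of all genes tested (grey, values beyond 4 in either direction counted in the outermost bins) in 6 comparisons, with each member as a point with its standard error, filled where it was called and open where it was not; the height of points carries no value. Cd4, Cd8a and Cd8b1 lie right of the bulk for H3K27ac and SMC1 of KO against EV, Zbtb7b lies within it, and Cd8b1 lies farthest right for SMC1 of DN3 cells against fibroblasts.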

How the data were processed

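Chromatin was immunoprecipitated from DN3-type Scid.adh cells and NIH-3T3 fibroblasts, and per the labels' protocols the libraries were sequenced paired-end. The submitters' processing notes name mm10 with Bowtie2, MACS2 and bedtools, while versions and settings were not given in the sources used here. The authors deposited 1 peak list per sample. Of these, 17 hold positions in 3 columns and 8 (H3K27ac and NIPBL) have 9 columns, in which the deposited values include a fold enrichment ratio, a score and −log10 p and q-values per peak; these describe peaks within a list only. Samples were grouped by the cell line, treatment and antibody in their labels.

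Peaks were merged within a list and covered bases summed over each gene body with 50 kb on both sides, for 21627 protein-coding genes. Genes with a mean of at least 500 bp were tested with limma 3.58.1 (R 4.3.3) on log2(covered bp + 500), with Benjamini-Hochberg adjustment over all genes tested and a threshold of 0.05. Python 3.11.15, numpy 2.4.6, pandas 2.3.3 and matplotlib 3.10.9 did the rest. The procedure was tested on simulated data; it recovered planted changes least for NIPBL, where none was called, and missed many small ones for SMC1 and CTCF, so a missed call does not show that values were alike. With 2 lists against 2, an exact permutation test cannot go below p = 0.333, so none is given. Alternatives were the pseudocount, filter, scaling, list length, peak threshold, window, variance trend, replicate block and leaving out each list; equal total bp and equal list length were also applied, after seeing the data, to the difference between cell lines. Named were the members, genes of their windows holding a described region, regulators that were called (or the 2 that differed most), and the 3 genes most alike. The members and lists were chosen with earlier results of these data known. Motifs were searched in promoters only; sequence under peaks was not used here.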

Additional observations from a re-analysis of the deposited data

Results flagged for a closer look

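The CTCF difference that goes with having TCF-1 was set side by side in both cell lines: induced minus untreated in fibroblasts, less EV minus KO in DN3 cells. This difference between lines passed limma's test of the difference itself for Cd8b1 (1.13 on the log2 scale, SE 0.34, adjusted p = 0.00715), Cd8a (0.85, SE 0.35, adjusted p = 0.0306) and Cd4 (0.81, SE 0.31, adjusted p = 0.0225). At all 3 genes CTCF coverage was higher with TCF-1 in fibroblasts and lower with it in DN3 cells, by the fitted values. The DN3 part was not called at any of them: KO minus EV was 0.33 for Cd8b1, 0.46 for Cd8a and 0.08 for Cd4, with overlapping lists. Nor was the fibroblast part called for Cd8a. The difference between lines was not particular to these genes, since 80.8% of genes tested passed. Zbtb7b did not (0.53, adjusted p = 0.128). With lists scaled to equal total bp, the values were 0.16 for Cd8b1, -0.12 for Cd8a, -0.42 for Cd4 and -0.66 for Zbtb7b, none passed, and 1.31% of genes did. With lists of equal length they were 0.02, 0.33, 0.29 and 0.27, none passed, and 28.5% of genes did.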

How the results depend on the processing

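Of 389 comparisons of a member's difference with an alternative, 309 kept direction and call, 47 lost the call, 7 gained it and 26 changed sign; where no cause is given, it was not tested. The number of members called was, for SMC1 of EV against KO, 3 in the reported fit and 0 with no filter, equal total bp, equal list length, stricter peaks, 10 kb, the gene body alone or no trend, and 0 to 3 leaving out a list. For H3K27ac it was 3, 2 with stricter peaks (Cd4 lost) or at 10 kb (Cd8b1 lost), 1 on the body alone and 2 to 3 leaving out a list. For NIPBL it was 0, and 0 to 2 leaving out a list. For fibroblast CTCF it was 2, 0 at equal total bp, 10 kb or the body alone, 1 at equal list length, and 1 to 2 leaving out a list. For DN3 against fibroblast CTCF it was 1, 2 at equal total bp or equal list length, 0 on the body alone, and 0 to 2 leaving out a list. For SMC1 of the lines it was 3, 4 at equal total bp (all higher in DN3), 2 at 10 kb, 0 on the body alone and 2 to 3 leaving out a list. A count can be low because members fell under the filter: on the body alone, Cd8a and Cd8b1 were not tested for SMC1, and Zbtb7b was the 1 member tested for CTCF or NIPBL; at 10 kb, Cd8a and Cd8b1 were not tested for CTCF.

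The labels do not say whether replicate numbers pair the lists. Deviations of same-numbered lists correlated at -0.26 for DN3 CTCF, 0.15 for SMC1, -0.50 for NIPBL, -0.02 for H3K27ac and -0.04 for fibroblast CTCF. A single correlation per antibody cannot decide whether lists were prepared in pairs. With the replicate block, 1 member was called for fibroblast CTCF and 0 for DN3 against fibroblast CTCF, and genes called for SMC1 of EV against KO went from 1482 to 2944.

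Sign changes in CTCF of EV against KO were, for Cd4, -0.27 at equal total bp, -0.21 at equal list length, -0.026 for stricter peaks, -0.24 at 10 kb, -0.042 without EV list 1 and -0.081 without KO list 1 (from -0.081 to 0.24 leaving out a list). For Cd8b1 they were -0.50 at equal list length and -0.26 for stricter peaks. For Zbtb7b they were -0.20 at equal total bp, -0.0075 at equal list length, -0.071 at 10 kb, -0.17 on the body and -0.11 without EV list 1 (from -0.11 to 0.39 leaving out a list). At equal total bp, Zbtb7b was -0.26 for SMC1 and -0.0025 for NIPBL; fibroblast CTCF was -0.15 for Cd4, -0.32 for Cd8a and -0.46 for Zbtb7b; and the CTCF effect of TCF-1 between lines was -0.42, -0.12 and -0.66. DN3 against fibroblast CTCF of Cd8a was 0.13 at equal total bp, 0.05 without untreated list 2, 0.11 without EV list 1 and 0.07 without KO list 2. SMC1 of the lines was 0.92 for Cd4 and 0.38 for Zbtb7b at equal total bp, and for Cd4 0.071 at 10 kb and 0.41 on the body.

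With stricter peaks, regions only with TCF-1 numbered 2 for CTCF, and regions only without it 0 for CTCF, 4 for SMC1 and 1 for H3K27ac. TCF-1 peaks at 10 kb, with stricter peaks and at equal list length numbered 2, 5 and 4 for Cd4, 0, 1 and 0 for Cd8a and 4, 7 and 5 for Zbtb7b in fibroblasts. The DN3 means were 0 at 10 kb and with stricter peaks for Cd4, and 2, 0.5 and 3.5 for Zbtb7b. Fibroblast SMC1 differences at 10 kb were -0.026 for Cd4, 0.0 for Cd8a and 0.0 for Cd8b1.

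Genes called over all alternatives ranged from 0 to 497 for DN3 CTCF (36 reported), 0 to 6720 for SMC1, 0 to 188 for NIPBL (0), 831 to 4180 for H3K27ac (4019), 1144 to 14594 for fibroblast CTCF (14218), 2532 to 9104 for CTCF of the lines (6517) and 7849 to 15168 for SMC1 of the lines (14172). At equal total bp the split of higher and lower was 687 and 457 for fibroblast CTCF (14215 and 3 reported), 4913 and 4191 for CTCF of the lines (1625 and 4892) and 7673 and 4644 for SMC1 of the lines (1967 and 12205). Depth is unknown, so short or weak peaks cannot be weighed by reads.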
